A study of Mus musculus with 12 samples.

Results

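The genes described are 9 secreted, membrane-bound or organellar proteases that can degrade amyloid β (Aβ) or act at the cell surface, *Ide*, *Mme*, *Ece1*, *Pitrm1*, *Mmp2*, *Mmp9*, *Mmp14*, *Plau* and *Plat*, taken by name from the 55487 genes of a mouse RNA-sequencing count table. Of these, 8 passed the filter on low counts that left 15425 genes, and *Mme* did not. The RNA came from CD11b-positive cells of the cerebral cortex of 12 male mice, 3 in each of 4 groups, with 1 library per mouse. CD11b is an integrin carried by microglia and by other myeloid cells, and the cells were pulled out with magnetic beads after papain digestion. The groups were WT mice given PBS (veh), WT mice given rh Bri2 BRICHOS R221E, *App* NL-G-F mice given veh and *App* NL-G-F mice given rh Bri2 BRICHOS R221E. *App* NL-G-F is a knock-in of humanised *App* with the Swedish, Iberian and Arctic mutations, and these animals are called *App* mice from here on. Rh Bri2 BRICHOS R221E is a recombinant human chaperone domain with an amino acid exchange. All mice, controls included, received 24 intravenous injections over 12 weeks from 9 months of age, at 10 mg/kg where BRICHOS was given, followed by 4 weeks without injections and perfusion with saline. The question for the proteases is whether their transcripts differed with the strain and with the treatment.

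Several proteases can cut Aβ. The neprilysin and insulysin families degrade soluble Aβ peptides, matrix metalloproteinases cut both the peptide and the matrix around cells, and the plasminogen activators turn plasminogen into plasmin, which can cut Aβ aggregates and matrix. Activators are held at the cell surface by receptors and blocked by serpins, and metalloproteinases are blocked by TIMPs, so that levels of a protease transcript do not give its activity.

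The catalytic sites show which of the 9 genes share a mechanism. The coding sequences below were read from GRCm38 with GENCODE M21 transcripts, 5′ to 3′ along the coding strand, with the codons of the active-site motif in capitals and 5 codons on either side in lower case. *Ide* and *Pitrm1* have the inverted zinc-binding motif of the insulysin family, *Mme* and *Ece1* the zinc-binding motif of the neprilysin family, the 3 *Mmp* genes the long zinc-binding motif of the matrix metalloproteinases, and *Plau* and *Plat* the motif around the catalytic serine of trypsin-like proteases.
Ide, exon 2, chr19:37329121-37329165, minus strand: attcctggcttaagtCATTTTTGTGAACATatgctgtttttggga
Pitrm1, exon 4, chr13:6553210-6553254, plus strand: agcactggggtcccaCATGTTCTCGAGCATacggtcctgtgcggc
Mme, exon 18, chr3:63362006-63362050, plus strand: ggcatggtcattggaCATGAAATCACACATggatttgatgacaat
Ece1, exon 17, chr4:137957157-137957201, plus strand: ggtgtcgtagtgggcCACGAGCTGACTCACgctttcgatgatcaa
Mmp2, exon 8, chr8:92839264-92839326, plus strand: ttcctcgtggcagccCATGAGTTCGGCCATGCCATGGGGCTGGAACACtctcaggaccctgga
Mmp9, exon 8, chr2:164951118-164951180, plus strand: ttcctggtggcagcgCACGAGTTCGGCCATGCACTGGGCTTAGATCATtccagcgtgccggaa
Mmp14, exon 5, chr14:54437612-54437674, plus strand: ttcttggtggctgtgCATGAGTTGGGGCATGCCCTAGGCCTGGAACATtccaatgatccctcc
Plau, exons 10 and 11 joined, chr14:20841080-20842303, plus strand: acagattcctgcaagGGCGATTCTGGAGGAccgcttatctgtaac
Plat, exons 13 and 14 joined, chr8:22780575-22781977, plus strand: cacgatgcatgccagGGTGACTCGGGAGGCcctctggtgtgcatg
Within the capitals, *Mmp2* and *Mmp14* were identical at 27 of 33 bases, and *Mmp9* matched each of them at 25. *Plau* and *Plat* were identical at 11 of 15 bases, *Ide* and *Pitrm1* at 10, and *Mme* and *Ece1* at 9. Genes with the same motif did not always move alike. In veh-treated mice *Ide* and *Pitrm1* were both higher in *App* than WT mice, whereas *Mmp14* was higher and *Mmp2* and *Mmp9* were lower.

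Between 12433402 and 17889654 reads were counted per library, and levels are given as TMM-normalised CPM with the mean ± SD of 3 mice. CPM is counts on a gene relative to the library's counts on all tested genes multiplied by its TMM factor. These factors were 1.045 to 1.104 in WT and 0.8744 to 0.9525 in *App* libraries, so small strain differences rest partly on this scaling. At these depths 3 counts, taken as the detection limit, equal 0.169 to 0.2266 CPM, a limit that covers counting error only. All 10 listed microglial markers were found in every library, with a summed level of 26100 to 31600 CPM. Marker totals of other cells differed between the groups, and some are given beside the proteases they moved with. That of oligodendrocytes was 9820 to 17150 CPM in veh-treated WT and 3335 to 5763 CPM in veh-treated *App* mice. After BRICHOS it was 4211 to 15980 CPM in WT and 4588 to 6380 CPM in *App* mice. Its part in the results was not tested. In such bulk samples, fewer cells of a type and less RNA per cell cannot be told apart. Tests are those of edgeR's quasi-likelihood fit over all 12 libraries. A call is a Benjamini-Hochberg adjusted p under 0.05 over all tested genes. Fold changes are on the log2 scale with their standard errors (SE). Of the 8 oligodendrocyte markers, 2 were called lower in veh-treated *App* than WT mice and 6 were not called.

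To compare levels between genes, counts were also divided by exon length (RPKM). In veh-treated WT mice *Plau* was the highest at 60.7 RPKM and *Mmp2* was next at 11.9, followed by *Ece1* (9.15), *Pitrm1* (8.63), *Mmp14* (7.37), *Ide* (6.38), *Mmp9* (5.6), *Plat* (4.11) and *Mme* (0.0364). The libraries of *Ece1* and *Pitrm1*, of *Ide* and *Mmp9*, and of *Mmp9* and *Plat* overlapped, so that the order of these neighbours is not resolved. In veh-treated *App* mice *Plau* was at 268 RPKM, and *Pitrm1* (10.3) and *Mmp14* (10.1), which overlapped, took the next places. *Mmp2* stood below *Ece1* and *Ide* there, at 5.46 RPKM against 8.28 and 8.18. After BRICHOS treatment *Plau* remained the highest, at 73.2 RPKM in WT and 326 RPKM in *App* mice. In BRICHOS-treated WT mice all neighbours from *Mmp2* (10.7 RPKM) to *Plat* (4.15 RPKM) overlapped.

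**Figure D1:**
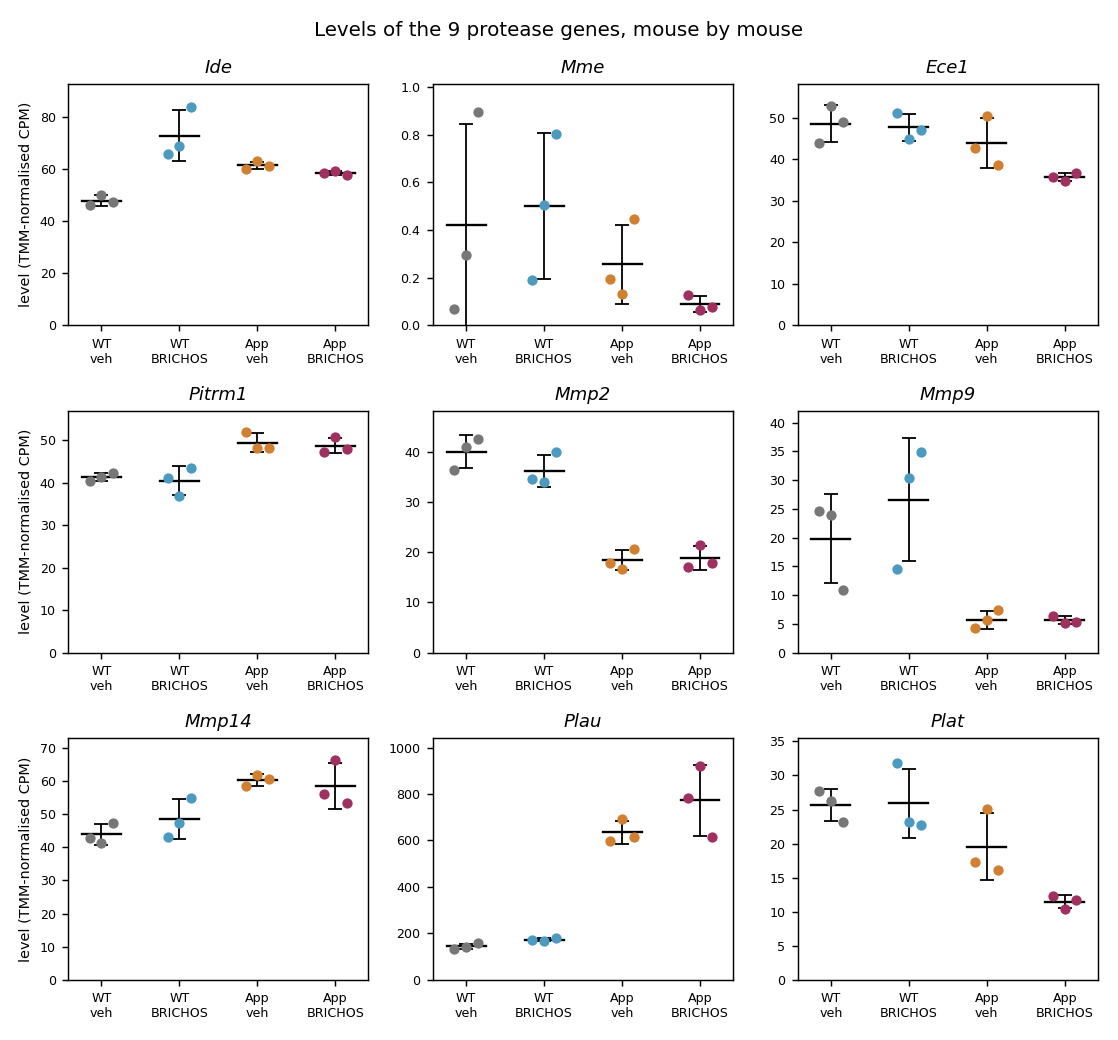
The level of each of the 9 protease genes (TMM-normalised CPM, linear axes from 0) by group, with a point for each mouse, a line at the mean and bars of 1 SD (n = 3; the lower bar of Mme in veh-treated WT mice ends at the axis). Plau lies between 597.5 and 692.5 CPM in veh-treated App mice and between 133.6 and 157.4 CPM in veh-treated WT mice, while Mmp2 and Mmp9 are lower in both App groups.

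In veh-treated mice, 6 of the 8 tested proteases differed between *App* and WT mice, against 37% of all tested genes. *Plau*, *Mmp14*, *Ide* and *Pitrm1* were higher in *App* mice, against 20.1% of all genes called higher, and *Mmp9* and *Mmp2* were lower, against 16.9% called lower. At an unadjusted p under 0.05, 7 of the 8 passed, against 46.6% of all genes. The 6 called genes had no overlap between the groups, which held for 50.9% of all tested genes. The changes ran from a 4.41-fold higher level of *Plau* to a 3.48-fold lower level of *Mmp9*, and the median absolute log2 fold change of all tested genes was 0.317.

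*Plau* (ENSMUSG00000021822, chr14:20836660-20843385) encodes urokinase, the plasminogen activator that binds to a receptor on the cell surface. Its level was 133.6, 140.4 and 157.4 CPM in veh-treated WT mice, 169.6, 168.3 and 181.7 in BRICHOS-treated WT mice, 597.5, 692.5 and 613.6 in veh-treated *App* mice, and 782.3, 919.6 and 615.8 in BRICHOS-treated *App* mice. Every *App* mouse was above every WT mouse, and the third BRICHOS-treated *App* mouse lay among the veh-treated ones. *Plau* rose by 2.14 on the log2 scale (SE 0.127) in veh-treated *App* against WT mice (adjusted p = 2.01e-07), from 143.8 ± 12.3 to 634.5 ± 50.9 CPM. Between the BRICHOS-treated strains the log2 fold change was 2.16 (SE 0.127, adjusted p = 1.7e-07).

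*Plat* (ENSMUSG00000031538, chr8:22757727-22782844) encodes tissue-type plasminogen activator, which endothelial cells release into blood. Its level was 27.7, 26.3 and 23.1 CPM in veh-treated WT mice, 31.8, 23.2 and 22.7 in BRICHOS-treated WT mice, 17.4, 25.1 and 16.1 in veh-treated *App* mice, and 12.3, 10.4 and 11.7 in BRICHOS-treated *App* mice. The BRICHOS-treated *App* mice were below all the others, and the second veh-treated *App* mouse lay among the WT mice. The strain difference in veh-treated mice did not pass the test (log2 fold change -0.39, SE 0.174, adjusted p = 0.0974). Without that second *App* mouse it did, at -0.62 (adjusted p = 0.0127). Between the BRICHOS-treated strains *Plat* was 2.25-fold lower in *App* mice (log2 fold change -1.17, SE 0.179, adjusted p = 0.000314). Endothelial markers moved with it, since 7 of 8 were called lower in *App* mice both between the veh-treated strains (median log2 fold change -0.78) and between the BRICHOS-treated strains (median -1.40). The other marker, *Flt1*, was not called and had a higher mean in *App* mice (237.4 to 290.8 CPM with veh, 213.7 to 257.2 CPM with BRICHOS). Markers of other cells were also called lower between the BRICHOS-treated strains. Among them were all 8 mural cell markers (median -1.49) and 6 of 7 border macrophage markers (median -1.51). In the same comparison 2 of 10 microglial and 1 of 9 astrocyte markers were called higher. The part of any of these cells in the result was not tested.

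*Mmp2* (ENSMUSG00000031740, chr8:92827291-92853420) encodes gelatinase A, which is secreted as a proenzyme and activated at the cell surface by the product of *Mmp14*. *Mmp2* was at 36.4, 41.0 and 42.6 CPM in veh-treated WT mice, 34.6, 34.0 and 39.9 in BRICHOS-treated WT mice, 17.9, 16.7 and 20.6 in veh-treated *App* mice, and 17.0, 21.5 and 17.9 in BRICHOS-treated *App* mice. The strains did not overlap under either treatment. *Mmp2* was 2.17-fold lower in veh-treated *App* than WT mice (log2 fold change -1.12, SE 0.113, adjusted p = 1.47e-05). The border macrophage markers moved with it. Their summed level over 7 genes was 405.7 to 477.2 CPM in veh-treated WT and 176.1 to 242.7 CPM in veh-treated *App* mice, 6 of the 7 were lower, and none was at 0 in any library. In BRICHOS-treated WT mice the same total was 534.8 to 655.4 CPM, above all veh-treated WT mice, and *Mmp2* was at 34.0 to 39.9 CPM. Markers of other cells were also called lower in veh-treated *App* than WT mice. Among them were 6 of 10 microglial, 7 of 8 endothelial and 5 of 7 neuronal markers, while 2 microglial and all 9 astrocyte markers were called higher. The part of any of these cells in the result was not tested.

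*Mmp9* (ENSMUSG00000017737, chr2:164940780-164955850) encodes gelatinase B, which neutrophils store in granules and macrophages secrete. Its level was 24.6, 24.0 and 10.9 CPM in veh-treated WT mice, 14.6, 30.3 and 35.0 in BRICHOS-treated WT mice, 4.21, 5.64 and 7.34 in veh-treated *App* mice, and 6.39, 5.12 and 5.36 in BRICHOS-treated *App* mice. The WT mice spread over a wide range, but none of them fell to the level of an *App* mouse. *Mmp9* was 3.48-fold lower in veh-treated *App* than WT mice (log2 fold change -1.80, SE 0.369, adjusted p = 0.00271). Leaving out each library in turn gave -2.09 to -1.61. Neutrophil markers moved with *Mmp9*. Of 9 such genes 7 were lower, and their summed level was 454.9, 370.1 and 35.2 CPM in the veh-treated WT mice, 68.5, 263.9 and 425.3 in the BRICHOS-treated WT mice, 15.8 to 37.9 in veh-treated *App* mice and 13.1 to 35.0 in BRICHOS-treated *App* mice. The WT mice with the lowest neutrophil total in their group, the third given veh and the first given BRICHOS, also had the lowest *Mmp9*. The third veh-treated WT mouse had a neutrophil total within the range of the *App* mice, yet more *Mmp9* (10.9 CPM) than any of them. Within neither *App* group did *Mmp9* have the order of the neutrophil totals. *Elane* and *Mpo* were at 0 in both of them and in several *App* mice, and *Camp* was at 0 in 2 of the latter. Between the veh-treated strains 6 of 7 border macrophage markers were also called lower in *App* mice and 0 higher. The part of neutrophils and of border macrophages in the result was not tested.

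*Mmp14* (ENSMUSG00000000957, chr14:54431612-54445364) encodes a matrix metalloproteinase anchored in the plasma membrane. Its level was 42.9, 41.4 and 47.4 CPM in veh-treated WT mice, 43.2, 47.5 and 55.0 in BRICHOS-treated WT mice, 58.5, 62.0 and 60.7 in veh-treated *App* mice, and 56.0, 66.4 and 53.3 in BRICHOS-treated *App* mice. The veh-treated strains did not overlap, whereas the BRICHOS-treated strains did. *Mmp14* was 1.38-fold higher in veh-treated *App* than WT mice (log2 fold change 0.46, SE 0.101, adjusted p = 0.00394).

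*Ide* (ENSMUSG00000056999, chr19:37268743-37337852) encodes insulin-degrading enzyme, which cuts insulin and monomeric Aβ. Its level was 46.1, 50.0 and 47.5 CPM in veh-treated WT mice, 65.8, 68.6 and 83.9 in BRICHOS-treated WT mice, 60.0, 62.9 and 61.2 in veh-treated *App* mice, and 58.4, 59.4 and 57.8 in BRICHOS-treated *App* mice. Veh-treated WT mice were the lowest and BRICHOS-treated WT mice the highest, and the groups did not overlap. *Ide* was 1.28-fold higher in veh-treated *App* than WT mice (log2 fold change 0.36, SE 0.081, adjusted p = 0.00485). Between the BRICHOS-treated strains it was instead lower in *App* mice, by 0.31 on the log2 scale (SE 0.0802, adjusted p = 0.00831).

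*Pitrm1* (ENSMUSG00000021193, chr13:6548149-6580515) encodes the presequence protease of mitochondria, a relative of *Ide* that also cuts Aβ. Its level was 40.3, 41.4 and 42.2 CPM in veh-treated WT mice, 41.2, 36.8 and 43.5 in BRICHOS-treated WT mice, 51.9, 48.1 and 48.2 in veh-treated *App* mice, and 47.3, 50.7 and 48.0 in BRICHOS-treated *App* mice. On this scale all *App* mice were above all WT mice. Relative to the library's counts on tested genes alone, without the TMM factors, the strains overlapped under both treatments. The separation thus depends on these factors. *Pitrm1* was 1.2-fold higher in veh-treated *App* than WT mice (log2 fold change 0.26, SE 0.0679, adjusted p = 0.0113), and the call was lost without the first veh-treated *App* mouse (0.22, adjusted p = 0.0545). *Pitrm1* shares 748 exonic bases with *Pfkp* on the other strand, which had 188 to 641 counts. Libraries were made with a stranded kit, but the strand setting of the counting is not given in the sources used here, so the 2 genes' reads may be mixed in that stretch.

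Of the neprilysin family members, *Ece1* did not pass the test in veh-treated mice and *Mme* was not tested. *Ece1* (ENSMUSG00000057530, chr4:137862237-137965229) encodes endothelin-converting enzyme 1, which makes endothelin and can cut Aβ in endosomes. *Ece1* was at 43.8, 52.7 and 48.9 CPM in veh-treated WT mice, 51.2, 44.8 and 47.1 in BRICHOS-treated WT mice, 42.7, 50.3 and 38.6 in veh-treated *App* mice, and 35.6, 34.7 and 36.7 in BRICHOS-treated *App* mice. The veh-treated strains overlapped, with a log2 fold change of -0.14 (95% interval -0.36 to 0.0723, adjusted p = 0.277). *Mme* (ENSMUSG00000027820, chr3:63241537-63386030) encodes neprilysin, a well known Aβ-degrading peptidase of the brain. *Mme* had 1, 5 and 12 counts in veh-treated WT mice, 3, 9 and 14 in BRICHOS-treated WT mice, 3, 2 and 6 in veh-treated *App* mice, and 2, 1 and 1 in BRICHOS-treated *App* mice. Every BRICHOS-treated *App* mouse was under the detection limit of 3 counts. In CPM, these mice (0.0895 on average) did not overlap with the veh-treated *App* mice (0.257) or the BRICHOS-treated WT mice (0.499), although a BRICHOS-treated and a veh-treated *App* mouse had the same count of 2. *Mme* was not tested because of its low counts, and no fold was computed.

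**Figure D2:**
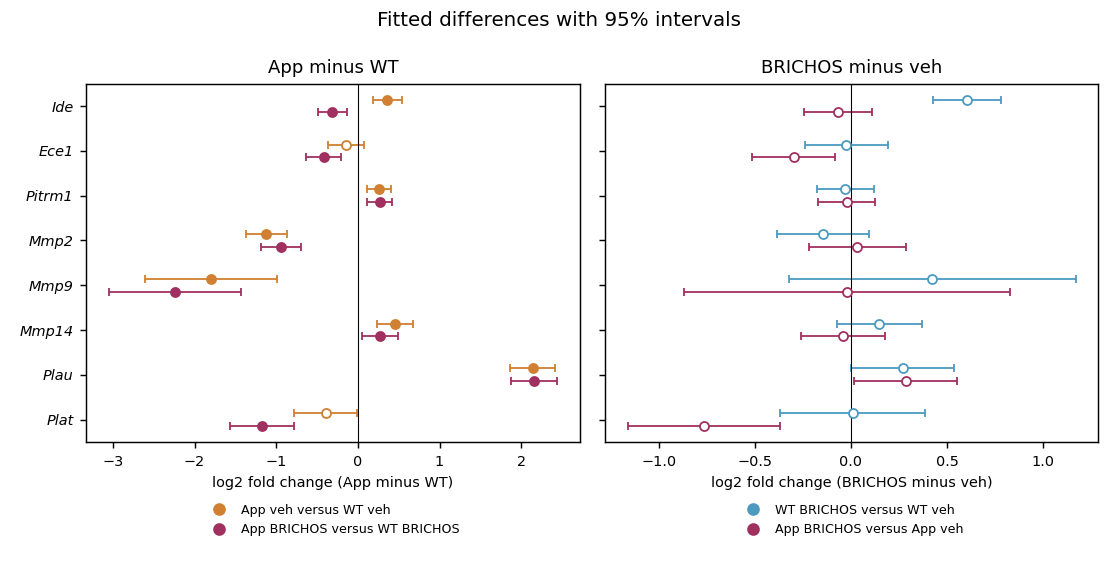
Fitted log2 fold change of the 8 tested proteases with 95% intervals, between strains (left) and between treatments (right, on a narrower axis), where filled points have an adjusted p under 0.05 and open points do not. Plau is near 2.1 in both strain comparisons and Mmp2 and Mmp9 are negative in both, Ide changes sign between them, and no point of the treatment comparisons is filled.

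BRICHOS treatment gave no adjusted call among the 8 tested proteases in either strain. In *App* mice 0 of 8 had an adjusted p under 0.05 in edgeR, against 0.00648% of all tested genes, and 3 had an unadjusted p under 0.05, against 10.8% of all genes. DESeq2's Wald test called 1 of them, *Plat* (log2 fold change -0.75, adjusted p = 0.0257). In WT mice 0 of 8 had an adjusted p under 0.05 in edgeR, against 0% of all genes, 1 had an unadjusted p under 0.05, against 11.4%, and DESeq2 called 1, *Ide*.

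In *App* mice, *Plat* had the lowest p of the 8. It was at 11.49 ± 0.97 CPM after BRICHOS and 19.52 ± 4.9 CPM after veh, with a log2 fold change of -0.77 (SE 0.181, unadjusted p = 0.00127, adjusted p = 0.29). *Ece1* was at 35.7 ± 0.986 CPM after BRICHOS and 43.87 ± 5.96 CPM after veh, with a log2 fold change of -0.30 (SE 0.0994, unadjusted p = 0.0116, adjusted p = 0.335). *Plau* was at 772.6 ± 152 CPM after BRICHOS and 634.5 ± 50.9 CPM after veh, with a log2 fold change of 0.28 (SE 0.121, unadjusted p = 0.0384, adjusted p = 0.426). The treatment groups did not overlap for *Plat*, *Ece1* and *Ide*, against 13.5% of all tested genes, and did for *Plau*. Endothelial markers moved with *Plat* and *Ece1*. Their summed level over 8 genes was 389 to 448.7 CPM in BRICHOS-treated and 468.1 to 625.3 CPM in veh-treated *App* mice, and none of the markers was at 0 in any library. Of the 8, 7 were lower at an unadjusted p under 0.05 and 7 did not overlap between the treatments (median log2 fold change -0.64), while 0 passed the adjusted test in edgeR. In WT mice the endothelial totals were 648.7 to 732.8 CPM after veh and 552.5 to 787.6 CPM after BRICHOS. Other markers were lower in BRICHOS-treated *App* mice as well, at an unadjusted p under 0.05 in edgeR and with no adjusted call. Among them were all 9 astrocyte markers (median log2 fold change -1.38, 0 without overlap) and 4 of 8 mural cell markers (median -0.57). The part of any of these cells in the result was not tested. The other tested proteases had log2 fold changes between -0.07 (*Ide*) and 0.03 (*Mmp2*). The 95% interval was -0.17 to 0.126 for *Pitrm1* and -0.869 to 0.828 for *Mmp9*, so that a change of *Mmp9* by up to 0.8 on the log2 scale in either direction was within the error.

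**Figure D3:**
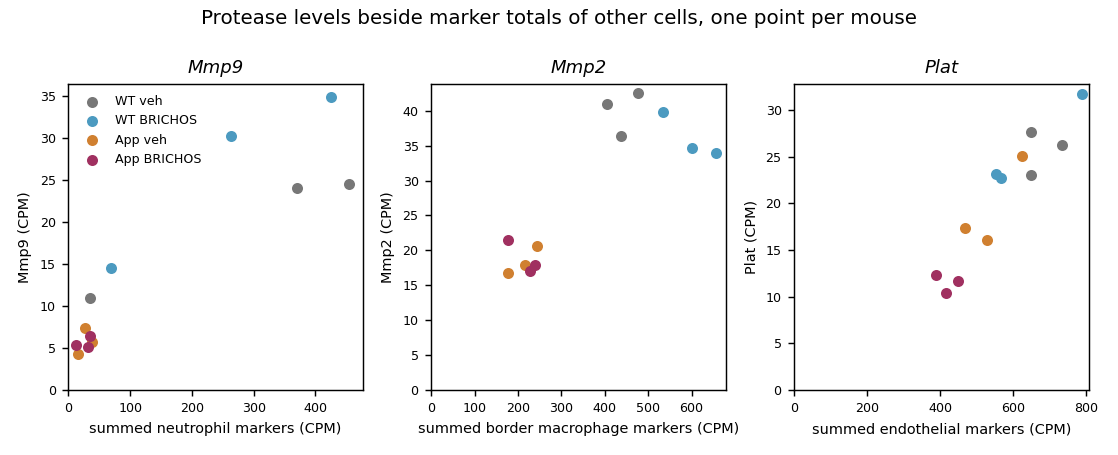
Levels of Mmp9, Mmp2 and Plat (vertical, CPM) against the summed CPM of neutrophil, border macrophage and endothelial markers (horizontal, CPM), with a point for each of the 12 mice and linear axes from 0. Mmp9 and the neutrophil total are lowest in the App mice and in a WT mouse of each treatment, Mmp2 and the border macrophage total separate the strains, and Plat and the endothelial total are lowest in BRICHOS-treated App mice.

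In WT mice, *Ide* had the lowest p not only of the 8 proteases but of all 15425 tested genes. It was at 72.76 ± 9.76 CPM after BRICHOS and 47.87 ± 1.95 CPM after veh, with a log2 fold change of 0.60 (95% interval 0.427 to 0.781, adjusted p = 0.0791 from edgeR and 2.76e-06 from DESeq2's Wald test). Markers of other cells were higher in the same mice, although none passed the adjusted test in edgeR. At an unadjusted p under 0.05, 5 of 7 border macrophage markers, 5 of 7 fibroblast markers and 4 of 7 markers of choroid plexus and ependyma were higher. The border macrophage total was 405.7 to 477.2 CPM after veh and 534.8 to 655.4 CPM after BRICHOS. The fibroblast total was 13.5, 12.8 and 21.3 CPM after veh and 24.8, 35.8 and 60.0 CPM after BRICHOS, and that of choroid plexus and ependyma was 907.9, 863.2 and 3922 CPM after veh and 3255, 4009 and 6766 CPM after BRICHOS. Among the BRICHOS-treated WT mice, the fibroblast and choroid plexus totals had the same order as *Ide*. The border macrophage total did not (600.5, 655.4 and 534.8 CPM). Among the veh-treated WT mice, none of these totals had the order of *Ide*. None of these markers was at 0 in any library, and their part in the result was not tested. *Plau* was next among the proteases, at 173.2 ± 7.37 CPM after BRICHOS and 143.8 ± 12.3 CPM after veh (log2 fold change 0.27, SE 0.123, adjusted p = 0.44). These were the only members of the 8 without overlap between the treatments, against 17.5% of all tested genes. The remaining 6 had log2 fold changes from -0.14 (*Mmp2*) to 0.42 (*Mmp9*), the latter with a 95% interval of -0.321 to 1.17.

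The treatment effect was then compared between the strains. For *Ide* it was lower in *App* than WT mice by 0.67 on the log2 scale (95% interval -0.922 to -0.422, unadjusted p = 8.95e-05, adjusted p = 0.134). For *Plat* the difference was -0.78 (95% interval -1.32 to -0.23, unadjusted p = 0.00943, adjusted p = 0.217). None of the 8 passed the adjusted threshold in edgeR, against 0.00648% of all genes, 2 passed the unadjusted one, against 14.8%, and DESeq2 called 1, *Ide* (-0.65, adjusted p = 0.00134).

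Between the BRICHOS-treated strains, all 8 tested proteases were called, against 42.5% of all tested genes, and 50.1% of all genes passed at an unadjusted p under 0.05. *Plau*, *Pitrm1* and *Mmp14* were higher in *App* mice, against 20.8% of all genes called higher, and *Mmp9*, *Plat*, *Mmp2*, *Ece1* and *Ide* were lower, against 21.8% called lower. The groups overlapped for *Mmp14* alone among the 8, and non-overlap held for 51.7% of all genes. The log2 fold changes were -2.24 for *Mmp9* (SE 0.369, adjusted p = 0.000539) and -0.94 for *Mmp2* (SE 0.112, adjusted p = 5.08e-05). *Ece1* was at -0.42 (SE 0.099, adjusted p = 0.00547) and *Pitrm1* at 0.27 (SE 0.0678, adjusted p = 0.00835). Without the TMM factors *Pitrm1* overlapped between these strains, so its difference depends on that scaling. Between these groups 5 of 9 neutrophil, 6 of 7 border macrophage and 7 of 8 endothelial markers were called lower. So were markers of other cells, among them all 8 of mural cells and all 7 of choroid plexus and ependyma. The part of these cells in the results for *Mmp9*, *Plat*, *Mmp2* and *Ece1* was not tested. The call of *Mmp14* (0.27, SE 0.0999, adjusted p = 0.0472) had the highest adjusted p of the 8 and was lost when any of 9 libraries was left out or when only the compared groups were fitted (adjusted p = 0.108).

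The partners of the plasminogen activators were read from lists of receptors and of inhibitors. Of 8 plasminogen and activator receptors tested in veh-treated mice, 5 were higher and 2 lower in *App* than WT mice, against 20.1% and 16.9% of all tested genes. *Plaur*, the urokinase receptor, was at 38.7, 33.6 and 26.2 CPM in WT and 153, 163.7 and 151.5 CPM in *App* mice, a log2 fold change of 2.25 (SE 0.144, adjusted p = 3.65e-07). *Anxa2*, annexin A2, which binds plasminogen and tissue-type activator, was higher by 2.02 on the log2 scale (21.7 to 88.0 CPM, adjusted p = 2.4e-07), while its partner *S100a10* was lower by 0.58 (7.92 to 5.28 CPM, adjusted p = 0.0119). *Eno1*, enolase 1, was higher by 0.95 (153.6 to 296 CPM), a value that is uncertain because the near-identical *Eno1b* may share its reads. These receptors thus moved in both directions, and *Plaur* and *Plau* were both over 4-fold higher.

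Of 9 genes for plasminogen, activator inhibitors and related proteins, 5 were tested, and 1 was higher and 2 were lower in veh-treated *App* mice, against the same 20.1% and 16.9% of all tested genes. *Serpine2*, protease nexin 1, which blocks thrombin and urokinase, rose from 445.1 to 1505 CPM (log2 fold change 1.76, SE 0.0754, adjusted p = 1.83e-08). *Serpini1*, neuroserpin, an inhibitor of tissue-type activator in neurons, was lower (3.49 to 1.60 CPM, adjusted p = 0.0147), as was *Thbd*, thrombomodulin of endothelial cells (21.5 to 16.5 CPM, adjusted p = 0.0452). Neuronal marker totals moved with *Serpini1*, at 20.7 to 25.3 CPM in WT and 7.58 to 9.58 CPM in *App* mice, and endothelial totals with *Thbd*, and their part was not tested. *Plg*, plasminogen itself, had 0 counts in 11 of 12 libraries and 1 count in the other. None of the receptors and inhibitors passed the adjusted test for BRICHOS treatment in either strain.

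**Figure D4:**
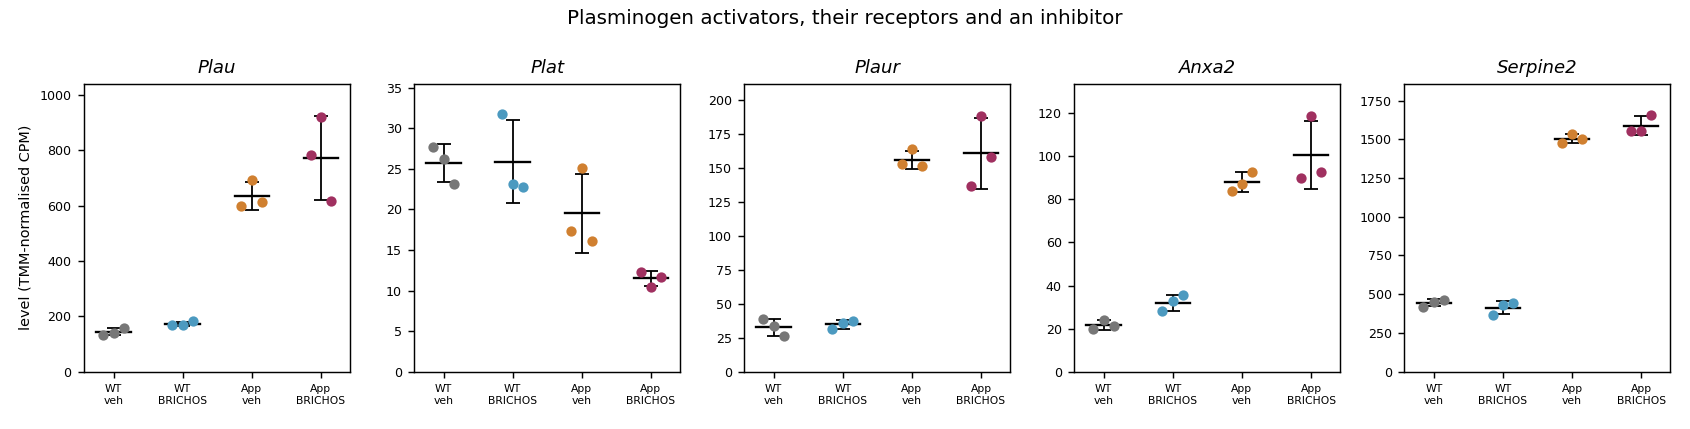
Levels (TMM-normalised CPM, linear axes from 0) of the plasminogen activators Plau and Plat, the receptors Plaur and Anxa2 and the inhibitor Serpine2 by group, with a point for each mouse, a line at the mean and bars of 1 SD (n = 3). Plau, Plaur, Anxa2 and Serpine2 are higher in all App than all WT mice, and Plat is lowest in BRICHOS-treated App mice.

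Of 20 other matrix metalloproteinase genes, 11 were tested, and 1 was higher and 4 were lower in veh-treated *App* than WT mice. These 5 of 11 stand against 37% of all tested genes called in either direction. *Mmp12*, the macrophage elastase, was higher in all 3 *App* mice, at 20.2, 15.6 and 17.8 CPM against 5.07, 5.16 and 5.29 CPM in WT (log2 fold change 1.79, SE 0.165, adjusted p = 7.2e-06). *Mmp28* was lower by 1.67 on the log2 scale (13.95 to 4.39 CPM, adjusted p = 2.51e-05) and *Mmp11* by 1.29 (4.15 to 1.69 CPM, adjusted p = 0.00314). *Mmp8*, the neutrophil collagenase, was at 12.5, 10.8 and 1.27 CPM in WT and 0.259, 1.51 and 1.33 CPM in *App* mice (log2 fold change -3.00, adjusted p = 0.0153), low in the same WT mouse as *Mmp9* and the neutrophil total.

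Of 8 metalloproteinase inhibitors and cofactors 7 were tested, and 4 were higher and 1 was lower in veh-treated *App* mice, against 20.1% and 16.9% of all tested genes. *Timp2*, an inhibitor that also takes part in the activation of gelatinase A, rose from 585.5 to 1319 CPM (log2 fold change 1.17, SE 0.0688, adjusted p = 1.87e-07), in the same mice in which *Mmp2* was lower. *Timp4* was at 4.79, 2.43 and 2.61 CPM in WT and 18.7, 18.1 and 6.30 CPM in *App* mice (log2 fold change 2.14, adjusted p = 0.00622). The first 2 of these *App* mice also had the highest totals of astrocyte markers, 4646 and 4146 CPM against 1450 CPM in the third and 440.1 to 624.3 CPM in WT mice, and all 9 markers were higher. The part of astrocytes in this result was not tested. *Timp1* had 1, 2 and 1 counts in WT and 13, 12 and 2 counts in *App* mice, too few for a firm fold, although it was called (adjusted p = 0.0123). *Reck*, a membrane-anchored inhibitor, was lower by 0.54 (18.9 to 12.9 CPM, adjusted p = 0.0195).

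Among relatives of the Aβ-degrading members, all 7 genes of the insulysin family were tested and 4 were higher in veh-treated *App* mice, against 20.1% of all tested genes. Beside *Ide* and *Pitrm1* these were *Pmpcb* (34.8 to 44.1 CPM, log2 fold change 0.34, adjusted p = 0.00294) and *Uqcrc2* (86.4 to 104.7 CPM, 0.28, adjusted p = 0.0016), which encode mitochondrial proteins. In the neprilysin family 1 of 7 genes, *Ece1*, was tested. A further list held 8 enzymes, *Ace*, *Bace2*, *Htra1*, *Thop1*, *Apeh*, *Prep*, *Lta4h* and *Nln*. They were listed as candidates for cleaving Aβ, and whether each of them does so was not examined. Of these, 2 were higher and none lower, against 20.1% and 16.9% of all tested genes. *Nln*, neurolysin, was higher by 0.35 (25.03 to 31.99 CPM, adjusted p = 0.018). *Htra1*, a secreted serine protease, was at 34.9, 24.2 and 16.8 CPM in WT and 87.0, 90.2 and 29.9 CPM in *App* mice (log2 fold change 1.45, adjusted p = 0.0213), and it was high in the mice with the highest astrocyte totals.

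Finally, for each protease called in veh-treated mice, the tested genes most like it were taken as those with the smallest root mean square difference of centred log2 CPM over the 12 libraries. They were *Arrdc4* (0.159) and *Kcnj2* (0.164) for *Plau*, *Alox5ap* (0.101) and *Prkab1* (0.104) for *Mmp2*, *Pi16* (0.243) and *Ptprn* (0.244) for *Mmp9*, and *Uqcrb* (0.0653) and *Ndufb11* (0.0791) for *Mmp14*. For *Ide* they were *Cfap298* (0.111) and *Plscr1* (0.126), and for *Pitrm1* its family member *Uqcrc2* (0.0403) and *Scamp3* (0.0502). The proteases' own SD of log2 CPM over the libraries was 1.14 for *Plau*, 0.555 for *Mmp2*, 1.11 for *Mmp9*, 0.228 for *Mmp14*, 0.237 for *Ide* and 0.152 for *Pitrm1*.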

How the data were processed

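Bulk mRNA of CD11b-positive cortical cells was sequenced for 12 mice. Reads were trimmed with Cutadapt, aligned to GRCm38 with STAR and counted on genes with featureCounts (v1.5.1), and the authors deposited raw counts without normalization. The handling of reads shared between genes is not given in the sources used here. Of 55487 genes, 55227 were matched to GENCODE M21. Each library was grouped by its title. Genes were kept by filterByExpr (minimum count 10), scaled with TMM factors and tested with the quasi-likelihood F test of edgeR 4.0.16 in R 4.3.3, with a mean for each group. In place of the Wald tests of the study, which were run as an alternative with DESeq2 1.42.0, this was the principal test. Other alternatives were DESeq2's size factors, no filter, at least 10 counts in every library, only the compared groups, an absolute log2 fold change over 1, the replicate number as a block, and leaving out each library. The test was checked on simulated data. Pathway genes were named if called in veh-treated mice, up to 4 per list by fold change. An item of these lists is not reported here. The members and lists were chosen with earlier results of these data known. Figures used Python 3.11.15 with matplotlib 3.10.9.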

Additional observations from a re-analysis of the deposited data

Results flagged for a closer look

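For *Ide* and *Plat*, the effect of BRICHOS differed between the strains at an unadjusted p under 0.05 in edgeR's test of the difference itself, and neither passed the adjustment over all genes. The treatment effect on *Ide* in *App* minus that in WT mice was -0.67 on the log2 scale (unadjusted p = 8.95e-05, adjusted p = 0.134). All 3 BRICHOS-treated WT mice were above all 3 veh-treated ones, and all 3 BRICHOS-treated *App* mice were slightly below theirs. For *Plat* the difference was -0.78 (unadjusted p = 0.00943, adjusted p = 0.217). All 3 BRICHOS-treated *App* mice were below the veh-treated ones, while the WT groups overlapped.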

How the results depend on the processing

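In veh-treated mice, the strain comparison kept the direction and side of the threshold of the 8 tested proteases under the other normalization, both other filters, DESeq2's Wald test, the fit of only the compared groups and the replicate block. Leaving out a library moved 2 of 96 values across the threshold, *Pitrm1* without the first and *Plat* without the second veh-treated *App* mouse, and the number called was 5 to 7. Requiring in addition an absolute log2 fold change over 1 left 3 called proteases, at the adjusted and the unadjusted threshold alike, and 3 and 3 between the BRICHOS-treated strains, where 7 to 8 were called with a library left out. *Mmp14* between the BRICHOS-treated strains was also lost with at least 10 counts in every library (0.24, adjusted p = 0.0747).

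For BRICHOS in *App* mice, DESeq2's Wald test called 1 protease (*Plat*, whose adjusted p in edgeR was 0.0524 to 0.701 with a library left out), and the fold cutoff left 0 at the unadjusted threshold. In WT mice, 1 was called (*Ide*) without a filter (adjusted p = 0.00987), with DESeq2 and without the first BRICHOS-treated WT mouse (adjusted p = 0.019), so that leaving out a library gave 0 to 1. At the unadjusted threshold, 0 passed with the fold cutoff, 2 with the stricter filter, without a filter, with only the compared groups and with DESeq2, and 1 to 2 with a library left out. For the difference of the effects, 1 was called (*Ide*) without a filter (adjusted p = 0.0323), with DESeq2 and without the third veh-treated *App* mouse (adjusted p = 0.0498), leaving out a library gave 0 to 1, and the fold cutoff left 0 at the unadjusted threshold. With a library left out, the adjusted p of *Ide* was 0.019 to 0.61 in WT mice and 0.0498 to 0.332 for the difference. The causes were not tested.

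The sign changed for some treatment effects that had not passed the test. With no filter *Plat* in WT mice was at -0.0052, and with at least 10 counts in every library the differences of the effects were -0.019 for *Pitrm1* and -0.012 for *Plau*. With a library left out, the effect in *App* mice ran from -0.044 to 0.033 for *Pitrm1*, -0.069 to 0.12 for *Mmp2*, -0.19 to 0.19 for *Mmp9* and -0.14 to 0.020 for *Mmp14*. In WT mice it ran from -0.096 to 0.038 for *Ece1*, -0.085 to 0.034 for *Pitrm1* and -0.17 to 0.095 for *Plat*. The difference ran from -0.055 to 0.064 for *Pitrm1* and -0.12 to 0.16 for *Plau*.

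Over all genes, leaving out a library gave 0 to 162 calls for BRICHOS in *App* mice, where the full fit gave 1 and DESeq2 116, so calls in the treatment comparisons depend on the test and on single mice. The libraries share the numbers 1 to 3 across groups but come from different mice, and the deviations of equally numbered libraries correlated at -0.0148 to 0.227, so they were not taken as pairs. With the replicate block, 6 proteases were called in veh-treated mice, 0 for BRICHOS in either strain and 8 between the BRICHOS-treated strains. The depth limits what can be said of genes with few counts, such as *Mme* and *Timp1*.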
